A study of Caenorhabditis elegans with 4 samples.

Results

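The TAF-1 binding sites of Caenorhabditis elegans chromosome II were taken as all peaks that the series-level peak list places on that chromosome. There were 421 of them among the 2987 peaks of the whole list, of which 2984 lie on the 6 nuclear chromosomes. The sites were mapped by chromatin immunoprecipitation followed by sequencing (ChIP-seq) in mixed-stage embryos of N2, the wild-type laboratory strain, from a population of males and hermaphrodites grown at 20 °C, with a rabbit polyclonal antibody to TAF-1. Fixation was in 2% formaldehyde for 30 min for all samples. Libraries were made from TAF-1 ChIP DNA and from input DNA, 2 of each. Each ChIP library has its own peak list, with 268 peaks on chromosome II in replicate 1 and 322 in replicate 2. The input libraries were not analysed here.

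TAF-1 is the scaffold subunit of TFIID, a complex of the general transcription machinery that binds core promoters and helps to bring RNA polymerase II to gene starts. In whole embryos a TAF-1 peak is therefore read as a place where this promoter-binding machinery was found in at least some of the cells. The cell types are not resolved, and whether each called peak reflects binding was not tested. The autosomes of C. elegans have gene-dense centres with conserved, widely expressed genes, flanked by arms that hold more repeats and faster-evolving gene families. Here the centre and the arms are parts of equal length, each 33.3% of the span of the chromosome, and do not follow the genetic map. On chromosome II the left arm ran from base 1 to 5090547, the centre to 10181094 and the right arm to 15271641, on WormBase WS220. Peaks were not assigned to genes, since the gene table at hand is on another build.

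Each list gives 1 value per peak, the peak caller's own score, on a scale that the sources used here do not state. Replicate scores start near 50 and 14 replicate 2 peaks and 3 replicate 1 peaks on chromosome II stand at 3100, a value at which scores pile up in both replicate lists. Series scores on the chromosome run from 1.39 to 184.55, so series and replicate scores are not comparable with each other. The lists hold no read counts, so the depth behind a peak is unknown. Intervals are 95% intervals for counting error over peaks. Neighbouring peaks are not independent, and nothing in the labels says that the replicates came from separate cultures, so p-values and agreement between lists may reflect technical spread.

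TAF-1 sites were slightly less dense on chromosome II than on the other chromosomes together, by a margin that did not pass the test. The density of series peaks was 27.6 per Mb on chromosome II (25.0 to 30.3) and 30.2 per Mb on the remaining 5 nuclear chromosomes together (29.0 to 31.4). The ratio of 0.913 (0.822 to 1.01) had a two-sided exact binomial adjusted p = 0.211 (over 36 tests, 6 on each chromosome). Taken singly, the others had 21.3 (V), 28.0 (IV), 32.9 (I), 35.7 (III) and 36.2 (X) series peaks per Mb. Against the other 4 autosomes only the ratio was 0.964 (exact binomial adjusted p = 0.725). In single replicates the densities were 17.5 and 21.1 per Mb on chromosome II, against 19.0 and 20.8 per Mb elsewhere, so that replicate 2 alone put the ratio at 1.01. Chromosome II held 14.1% of all nuclear series peaks and a like share of the strong ones, with 41 of the 298 in the top 10% by score (13.8%).

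The peaks of the series list were narrow, and its high-scoring peaks were broader than its low-scoring ones. The median width of series peaks was 252 bp on chromosome II, with quartiles of 187 and 359 bp, and 240 bp elsewhere, with quartiles of 183 and 343 bp. Their median score was 8.12 (quartiles 4.60 and 18.4), against 8.53 (4.86 and 17.4) elsewhere. Across the 421 peaks width and score had a Spearman's rho of 0.534, a description across peaks of 1 list, and rho was 0.560 on the other chromosomes. Together the peaks covered 137 kb, or 0.897% of the chromosome. Replicate peaks were wider, with median widths on chromosome II of 429.5 bp in replicate 1 and 1166.5 bp in replicate 2, so width depends on the list. They covered 0.978% and 3.06% of the chromosome.

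**Figure D1:**
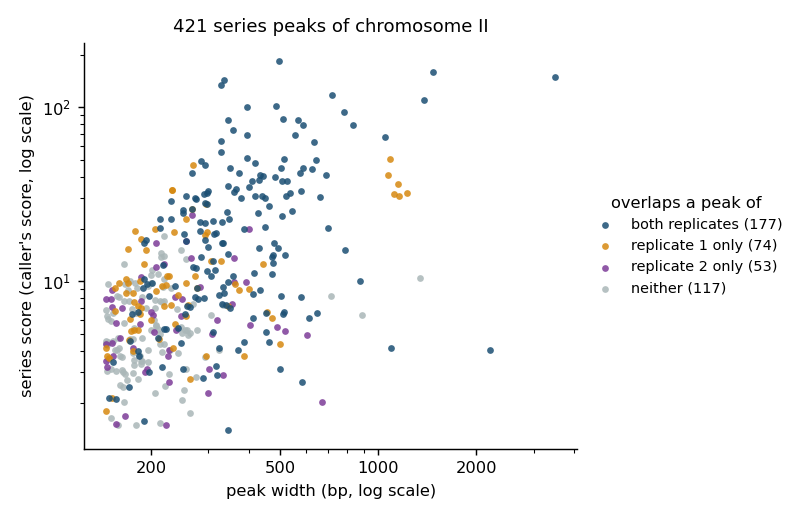
Width (bp, log scale) against the caller's score (log scale) for the 421 series peaks of chromosome II, each point a peak, coloured by the replicate lists it overlaps. Peaks found in both replicates (177) reach scores of 184.55, and those found in neither (117) lie at 18.21 or below; the group of wide points found in replicate 1 only belongs to a single run of neighbouring peaks.

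The highest series scores of the chromosome lay in its centre and right arm. Of the 10 highest-scoring series peaks, 4 were in the centre, 6 in the right arm and 0 in the left arm, and all 10 overlapped a peak in each replicate. The first was a 496-bp peak at 11545165 to 11545660, with a series score of 184.55, where the replicate scores were 2369.54 and 3100. The second, at 9631680 to 9633152, was 1473 bp wide and scored 160.46. Both replicates reached 3100 there. The 3487-bp peak at 11757821 to 11761307, the widest on the chromosome, scored 149.35 and was also at 3100 in both replicates. All 3 were wider than the upper quartile of 359 bp.

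Some of the other strong sites were narrower than that quartile. The peak at 12339093 to 12339427 was 335 bp wide and scored 143.34, with replicate scores of 1590.09 and 2624.22. The peak at 12102346 to 12102674 was 329 bp wide and scored 134.77, with replicate scores of 1134.49 and 3014.61. The peak at 8459738 to 8460456 scored 117.3. Next came 110.7 for a 1383-bp peak at 14404675 to 14406057, 102.41 at 8028153 to 8028637, 100.75 at 11960591 to 11960986 and 93.89 at 9061464 to 9062245. The strongest left-arm site, at 632370 to 632877, ranked 11 on the chromosome with a score of 86.33. The left arm held 20 of the 100 highest-scoring peaks, the centre 32 and the right arm 48. Of all series peaks on the chromosome these parts held 27.6%, 34.4% and 38.0%.

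TAF-1 peaks were fewer in the left arm than in the right arm. The left arm held 116 peaks (22.8 per Mb, 18.8 to 27.3) and the right arm 160 (31.4 per Mb, 26.7 to 36.7), so that 42.0% of arm peaks (36.1 to 48.1%) were on the left (two-sided exact binomial adjusted p = 0.0351). Replicate 1 alone had 64 peaks in the left arm and 103 in the right (38.3% on the left, exact adjusted p = 0.0189). The call was lost in replicate 2 alone, with 103 and 126 peaks (45.0%, exact adjusted p = 0.295), and when series peaks within 1 kb of each other were counted once (44.6%, exact adjusted p = 0.287). On the other 5 chromosomes the left arms carried 30.2 and the right arms 31.3 series peaks per Mb. X leaned the same way as II, with 44.6% of arm peaks on the left (40.1 to 49.3%, exact binomial adjusted p = 0.0640). The left share was 52.6% on I, 49.4% on III, 50.1% on IV and 50.9% on V, the rest of these 5 chromosomes. Whether chromosome II differs from them in this was not tested.

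The imbalance was larger among sites found in both replicates, in a comparison that depended on how sharing was defined. Of the series peaks found in both replicates, 34 lay in the left arm and 75 in the right arm, or 31.2% (22.7 to 40.8%) of arm peaks on the left. Of the other arm peaks, 82 were on the left and 85 on the right (49.1%, 41.3 to 56.9%). Put the other way round, 29.3% of left-arm peaks (34 of 116) and 46.9% of right-arm peaks (75 of 160) were found in both replicates, a difference of -17.6 percentage points (-28.3 to -5.93, Fisher's exact adjusted p = 0.0135 over 30 tests chosen after seeing the data). That call was lost when shared peaks had to have midpoints within 100 bp (-1.36 points, exact adjusted p = 0.948), and among the top 50% of peaks by score (-11.4 points, exact adjusted p = 0.395). With an overlap of at least 50% of each peak few peaks matched, and the difference was 0.474 points. A narrow peak inside a much wider one cannot meet that rule, so it could not decide the comparison. Several series peaks under 1 wide replicate peak were each counted as shared. The comparison was not repeated with series peaks within 1 kb of each other counted once. Median scores were 7.32 in the left arm, 8.32 in the centre and 9.25 in the right arm, and median widths 238, 252 and 268 bp.

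**Figure D2:**
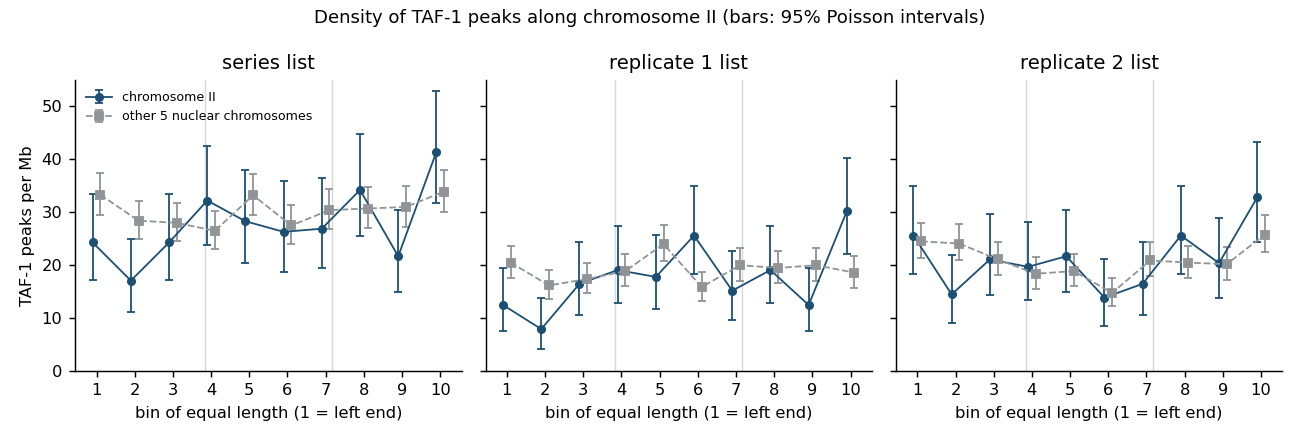
TAF-1 peaks per Mb in each of 10 bins of equal length, from the left end, in the series, replicate 1 and replicate 2 lists, for chromosome II (circles) and the other 5 nuclear chromosomes together (squares); bars are 95% Poisson intervals and grey lines bound the centre. On chromosome II bin 2 is the lowest and bin 10 the highest in the series list, at 17.0 and 41.3 peaks per Mb.

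Along the chromosome the density rose and fell several times. In 10 bins of equal length, the series list was lowest in bin 2, with 26 peaks (17.0 per Mb, 11.1 to 24.9), and highest in bin 10, with 63 peaks (41.3 per Mb, 31.7 to 52.8). Bin 10 was also the highest in replicate 1 (46 peaks, 30.1 per Mb) and in replicate 2 (50 peaks, 32.7 per Mb). Replicate 1 had its lowest value, 7.86 per Mb, in bin 2, and replicate 2 its lowest, 13.8 per Mb, in bin 6. In bin 6 replicate 1 had 25.5 per Mb, its second highest value. In bin 1 the order was the other way round, with 12.4 per Mb in replicate 1 and 25.5 per Mb in replicate 2. Some of these traits were shared with the other 5 chromosomes together. There too bin 10 was the highest in the series list (33.8 per Mb) and in replicate 2 (25.7 per Mb). Bin 6 was also their lowest in replicate 2 (14.7 per Mb), but their highest in replicate 1 was bin 5 (23.9 per Mb).

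The share of series peaks in the centre did not differ from an even spread beyond counting error. It had 145 of 421 peaks, or 34.4% (29.9 to 39.2%), against 33.3% of the span (two-sided exact binomial adjusted p = 0.797). Over all nuclear chromosomes 32.3% of series peaks were central. The share on chromosome II exceeded the 32.0% of the other 5 chromosomes by 2.45 percentage points (-2.30 to 7.44, Fisher's exact adjusted p = 0.542). Replicate 1 had 37.7% of its peaks in the centre and replicate 2 had 28.9%, on either side of an even spread, and neither passed the test (exact binomial adjusted p = 0.312 and 0.251).

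Replicate support of the sites on chromosome II was close to that of the whole list. An overlap of at least 1 bp with a peak of each replicate was found for 177 of the 421 series peaks (42.0%, 37.3 to 46.9%), where the share over all nuclear peaks was 41.8%. The difference from the other chromosomes was 0.295 points (-4.71 to 5.42, Fisher's exact adjusted p = 0.998). The share on chromosome II was 20.4% with midpoints within 100 bp and 1.43% with an overlap of at least 50% of each peak. A further 74 (17.6%) overlapped replicate 1 only, against 16.9% over all nuclear peaks, and 53 (12.6%) overlapped replicate 2 only, against 12.4%. Neither replicate had a peak at the other 117 (27.8%), against 29.0%. The median score was 17.3 where both replicates had a peak, 9.04 where replicate 1 alone had one, 5.69 where replicate 2 alone did and 5.07 where neither did. Median widths followed a like order, at 344, 229, 222 and 188 bp.

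Support went with the score, on chromosome II as elsewhere. The series holds no ChIP libraries beyond these replicates, so its list is not independent of theirs. Some of this relation may therefore be built in, and agreement with the replicates is no separate evidence for a site. Among the 105 highest-scoring peaks of the chromosome, with scores of 18.66 or more, 87 (82.9%) were found in both replicates and 0 in neither. Among the 106 lowest, with scores of 4.60 or less, 24 (22.6%) were found in both and 52 (49.1%) in neither. On the other chromosomes the shares were 85.3% in both and 0.312% in neither for the 641 highest-scoring peaks, and 18.6% and 50.1% for the 641 lowest. The highest-scoring peak found in neither replicate, at 5373264 to 5373482, scored 18.21. The highest found in replicate 2 only, at 216595 to 216861, scored 24.20. Replicate 1 alone supported stronger sites than these, up to 50.55.

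The support of series peaks was higher in the centre of chromosome II than in its arms by a margin that did not pass the test. In the centre 46.9% (68 of 145) were found in both replicates and in the arms 39.5% (109 of 276), which differ by 7.40 points (-2.47 to 17.2, Fisher's exact adjusted p = 0.295). With midpoints within 100 bp as the rule for sharing the difference was 12.0 points and passed the test (Fisher's exact adjusted p = 0.0257). The left arm stood lowest, at 29.3% (21.2 to 38.5%), whereas on the other chromosomes the left arms had 39.8%, the centres 46.0% and the right arms 39.7%.

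**Figure D3:**
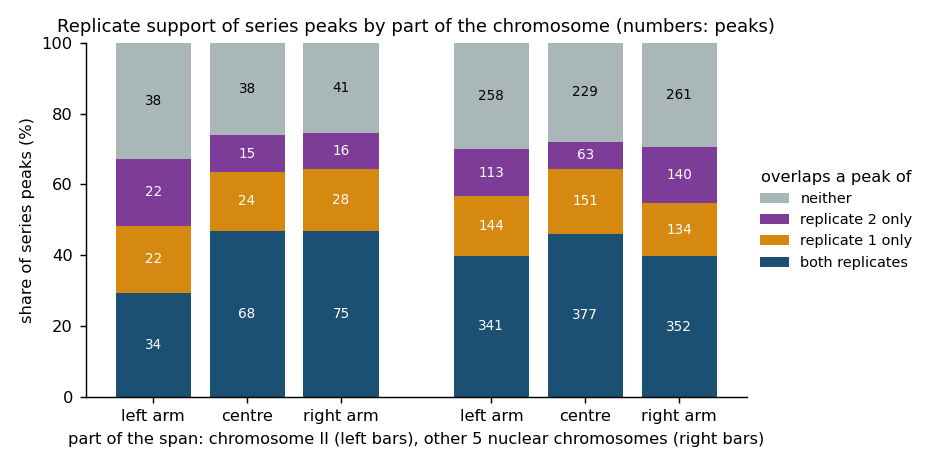
Share of series peaks (%) that overlap a peak of both replicates, of replicate 1 only, of replicate 2 only or of neither, in the left arm, centre and right arm of chromosome II (left bars) and of the other 5 nuclear chromosomes (right bars); numbers are peaks. On chromosome II 34 of 116 left-arm peaks are in both replicates, against 68 of 145 in the centre and 75 of 160 in the right arm.

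The replicate lists were then compared with each other on chromosome II. Of the 268 replicate 1 peaks, 178 (66.4%, 60.4 to 72.0%) overlapped a replicate 2 peak, against 67.6% of replicate 1 peaks over all nuclear chromosomes. Of the 322 replicate 2 peaks, 155 (48.1%, 42.6 to 53.7%) overlapped a replicate 1 peak, against 54.1% over all nuclear chromosomes. Stricter rules left 35.4% of replicate 1 and 29.5% of replicate 2 peaks shared with midpoints within 100 bp, and 11.2% and 9.32% with an overlap of at least 50% of each peak. Replicate 2 sharing on chromosome II was 7.07 points below that of the other chromosomes, 48.1% against 55.2% (difference -12.9 to -1.14, Fisher's exact adjusted p = 0.0530 over the 30 tests chosen after seeing the data). Shared peaks were the stronger ones, with a median score of 169 against 85.6 without a partner in replicate 1, and of 280.4 against 84.8 in replicate 2.

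Replicate 2 peaks were shared more often in the centre than in the arms, on chromosome II as on most others. Of the central replicate 2 peaks, 63 of 93 (67.7%, 57.3 to 77.1%) had a replicate 1 partner, against 92 of 229 (40.2%, 33.8 to 46.8%) in the arms, or 27.6 points more (15.6 to 38.2, Fisher's exact adjusted p = 1.6e-04, chosen after seeing the data). The call was lost with an overlap of at least 50% of each peak, where the difference was 6.55 points (exact adjusted p = 0.148). A narrow peak inside a much wider one cannot meet that rule, so this alternative cannot decide whether the sites are shared. On the other 5 chromosomes together 67.4% were shared in the centres and 50.4% in the arms, and the difference was 22.5 points on I, 27.0 on III, 14.4 on IV, 26.8 on V and 0.748 on X. Whether chromosome II differs from them in this was not tested. On chromosome II both arms were low, with 33.0% shared in the left arm and 46.0% in the right. Among replicate 1 peaks 68.3% were shared in the centre, 59.4% in the left arm and 68.9% in the right. Peaks without a partner were in the centre at 35.6% in replicate 1 (32 of 90) and at 18.0% in replicate 2 (30 of 167), which is 17.6 points apart (6.39 to 29.1, adjusted p = 0.00945 by Fisher's exact test, chosen after seeing the data). The same shares were 33.5% in replicate 1 and 20.6% in replicate 2 on the other chromosomes together. Most unshared replicate 2 peaks, 125 of 167, had no series peak either, and elsewhere it was 564 of 792. Of the 125, 52 lay in the left arm, 18 in the centre and 55 in the right arm.

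At shared sites the scores ranked alike. Over the 155 one-to-one pairs on chromosome II Spearman's rho was 0.674, and over the 141 pairs below 3100 in both replicates it was 0.569. On the other chromosomes the values were 0.752 over 976 pairs and 0.673 over 881. These are descriptions across peaks that share 2 libraries. Series scores followed replicate 1 with a rho of 0.720 over 241 pairs and replicate 2 with a rho of 0.436 over 192 pairs, and the pairing is less complete for the wide replicate 2 peaks, of which 30 covered 2 or more series peaks. Without pairs at 3100 the rho was 0.713 with replicate 1 over 239 pairs and 0.345 with replicate 2 over 178. On the other chromosomes it was 0.711 with replicate 1 and 0.555 with replicate 2 over all pairs. On chromosome II midpoints of series and replicate 1 peaks were a median of 27.5 bp apart, and those of series and replicate 2 peaks 73 bp.

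**Figure D4:**
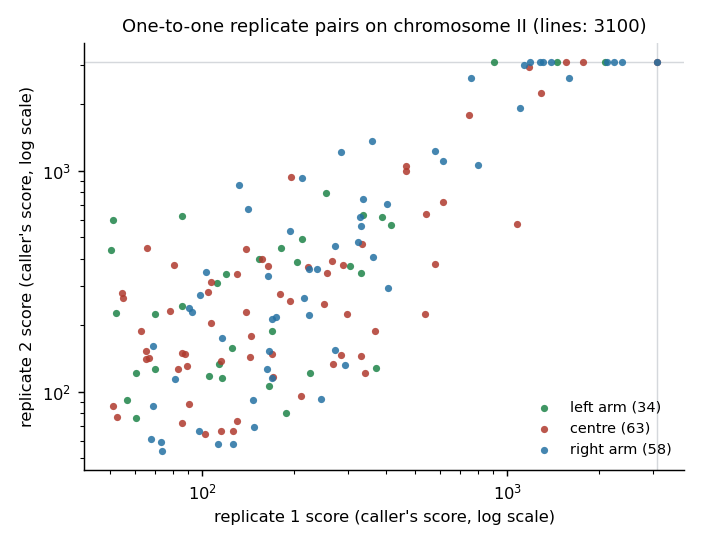
Replicate 1 against replicate 2 scores (the caller's score, both axes on a log scale) of the 155 one-to-one pairs on chromosome II, coloured by the part of the chromosome; grey lines mark 3100. Pairs in which replicate 2 stands at 3100 span a wide range of replicate 1 scores, starting at 904.31.

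At most of the 14 replicate 2 peaks at 3100 the series list also had a high-scoring peak, but not at all of them. All 14 overlapped a replicate 1 peak and a series peak, and 8 lay in the right arm, 3 in the centre and 3 in the left arm. Under most of them the best series peak ranked from 1 to 32 on the chromosome by series score. The best series score under them ranged from 4.04 to 184.55. The lowest belonged to the second widest series peak, 2205 bp at 12843873 to 12846077, which ranked 343 on the chromosome by series score while its replicate 1 partner scored 1392.9. Under another, at 14337073 to 14339730, the best series score was 10.01 (rank 167) and the replicate 1 score 1188.75.

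Replicate 1 had a high-scoring peak that no other list held. A 4521-bp replicate 1 peak at 8288315 to 8292835, in the centre, stood at 3100, a score that it shared with 2 other replicate 1 peaks of the chromosome. It overlapped neither a replicate 2 peak nor a series peak, and a smaller replicate 1 peak beside it, at 8287501 to 8287938 with a score of 220.62, had no partner either. Over the whole chromosome 27 of 268 replicate 1 peaks (10.1%) lacked a series peak, against 11.4% of all nuclear replicate 1 peaks, and their median score was 78.5. Of the 322 replicate 2 peaks 130 (40.4%) lacked one, against 35.7% of all nuclear replicate 2 peaks. The strongest of these, at 1250104 to 1251698 in the left arm, scored 974.81 and had no replicate 1 partner.

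Close neighbours were about as common among TAF-1 sites on chromosome II as elsewhere. Of the 420 gaps between neighbouring series peaks 52 (12.4%, 9.39 to 15.9%) were at most 1 kb, against 14.2% (12.8 to 15.6%) on the other chromosomes, and 165 were at most 10 kb. The median gap was 16.4 kb (quartiles 3.35 and 46.9 kb). Peaks at most 1 kb apart formed 37 runs with 89 peaks, of which 30 runs were pairs. Runs held 21.1% of peaks on chromosome II and 23.4% on the other chromosomes. Peaks in runs were found in both replicates at 62.9% (56 of 89) and solitary peaks at 36.4% (121 of 332). A wide replicate peak can overlap several members of a run, and these counts were not tested. The 3 shortest gaps were 46, 47 and 52 bp, the first between peaks at 1134473 to 1134656 and 1134703 to 1134982.

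Close spacing of series peaks was more frequent in the arms together than in the centre, mostly through the right arm. In the centre 9 of 144 gaps (6.25%) were at most 1 kb, against 43 of 274 (15.7%) in the arms, or -9.44 points (-15.0 to -2.99, Fisher's exact adjusted p = 0.0146, chosen after seeing the data). Within the arms it was 31 of 159 gaps (19.5%) in the right arm and 12 of 115 (10.4%) in the left. The intervals of the left arm (5.51 to 17.5%) and the centre (2.90 to 11.5%) overlapped, and these parts were not tested against each other. The difference of centre from arms was -0.998 points on I and -7.38 on III, and it had the other sign on IV, V and X (4.03, 6.67 and 3.95). In replicate 1 such gaps were 5 of 63 in the left arm, 7 of 100 in the centre and 21 of 102 in the right arm. In replicate 2, with wide peaks, they were 11 of 102, 9 of 92 and 14 of 125 (10.8%, 9.78% and 11.2%). Of the 71 arm peaks in runs, 22 were on the left and 49 on the right. Gaps within a run are not independent, and the runs with the most peaks, of 7 and of 6, both lay in the right arm.

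The longest run, in number of peaks and in length, had 6 wide, strong peaks and a weak one, and replicate 2 lacked them all. It held 7 series peaks from 13817487 to 13828605, a length of 11119 bp in the right arm. The first 6 were 1067 to 1222 bp wide, several times the median, and scored 31.03 to 50.55, and the last was 500 bp wide and scored 4.34. Their midpoints followed each other at 1947.5, 1554, 1875, 1766, 1908 and 1207.5 bp. Replicate 1 had 1 peak for each of the 7, with scores of 231.21 to 1305.56, and replicate 2 had 0 there. The peak at 13822932 to 13824016, with 50.55, had the highest score of all series peaks on the chromosome found in replicate 1 only. The nearest series peak beyond the run, at 13834354 to 13834583, was found in both replicates.

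The runs with the next most peaks had other support, and a run of 3 peaks, at 4534 bp, was longer than either. A run of 6 peaks from 11632710 to 11637065 scored 50.13 and 41.99 at its strongest members, which replicate 1 had as separate peaks of 1311.44 and 1323.99 and replicate 2 as 1 peak of 2992 bp at 3100. A second replicate 2 peak, at 85.75, lay under the first member of the run. A run of 4 peaks in the left arm, from 4640811 to 4644852, covered 78.0% of its length with peaks of 206 to 1344 bp. Its scores of 6.38 to 10.48 were near the median of the chromosome, and neither replicate had a peak there. Its widest member, at 4641359 to 4642702, was the fifth widest series peak of chromosome II.

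**Figure D5:**
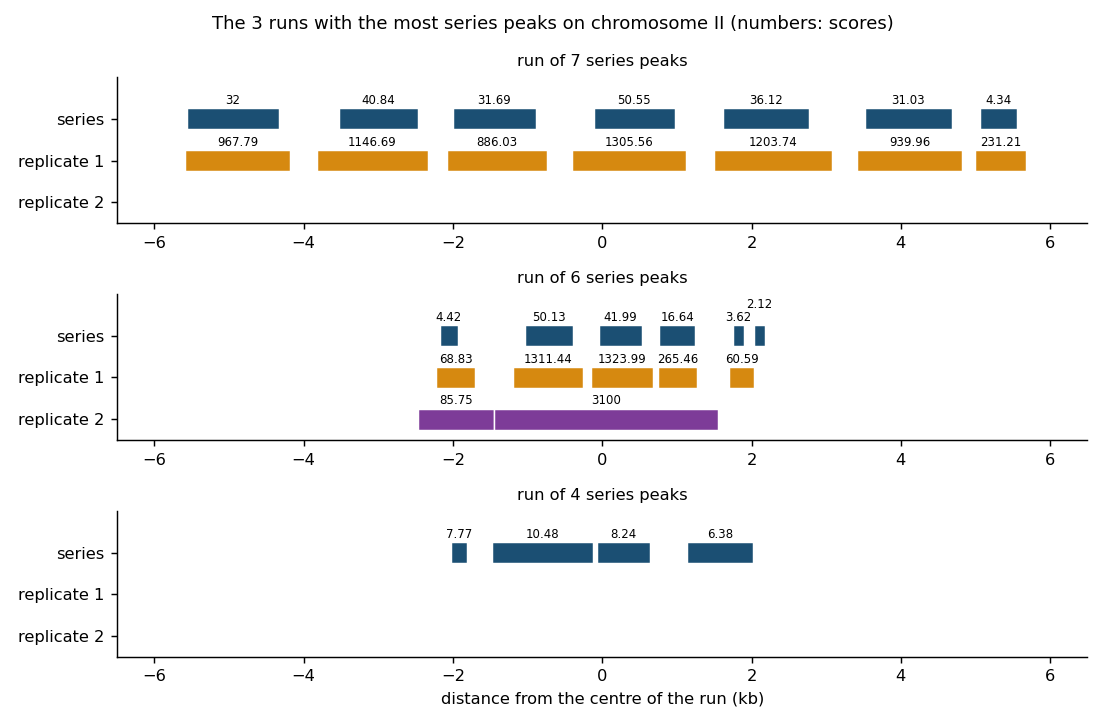
The 3 runs with the most series peaks on chromosome II, with gaps of at most 1 kb, drawn to scale as distance from the centre of each run (kb), with the series, replicate 1 and replicate 2 peaks in rows and their scores above them. The run of 7 has a replicate 1 peak under every series peak and no replicate 2 peak, the run of 6 has 2 replicate 2 peaks, of which the one at 3100 spans 3 of the series peaks, and the run of 4 is in the series list alone.

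Dense and empty stretches alternated along the chromosome, much as on the others. In fixed 100-kb windows the median was 2 series peaks, and 21 of 153 windows were empty (13.7%, against 11.5% on the other chromosomes). Windows with 7 or more peaks numbered 10 (6.54%, against 8.35% on the other chromosomes). The densest, from 5300001 to 5400000 near the left border of the centre, held 11. These were a mixed group, with 4 found in both replicates, 2 in replicate 1 only, 2 in replicate 2 only and 3 in neither, and with scores from 1.51 to 46.53. Its strongest members were peaks at 5350353 to 5350622 (46.53, replicate 1 only) and 5346379 to 5346728 (45.07, both replicates). With windows shifted by 50 kb, an alternative chosen after seeing the data, the densest held 13.

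Some long stretches had few or no sites in a list. The longest gap between series peaks, 330277 bp in the left arm, ran from 3567918 to 3898194 and held 1 replicate 1 and 2 replicate 2 peaks. The next were 246958 bp, from 13478398 to 13725355, and 222433 bp, from 633829 to 856261. Replicate 2 had its longest gap, 698789 bp, from 1472077 to 2170865, where the series list had 11 peaks and replicate 1 had 4. Replicate 1 had its longest gap, 464198 bp, inside nearly the same stretch, from 1520161 to 1984358, with 5 series peaks. Both replicates were thus sparse in this part of the left arm.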

How the data were processed

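ChIP-seq peak lists of 2 TAF-1 ChIP replicates and of the series were used as deposited. Per the submitters' processing notes BWA and the ce10 build were used. Coordinates refer to WormBase WS220, per the file headers, and the lists name MACS (replicates) and MACS v2 (series). How the input, cutoffs and pooling entered is not stated there. The deposited lists give a score for each peak, which was used to rank peaks within a list. Read depth is unknown.

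The span of a chromosome ends at its last peak end over the 3 lists, and mitochondrial peaks did not enter. Peaks were placed by midpoint, and shared peaks overlapped by at least 1 bp. For each of the 6 nuclear chromosomes, 6 two-sided exact tests were run (binomial for density, centre share and arm balance, Fisher's for shares) and adjusted together by the Benjamini-Hochberg method with a threshold of 0.05, and 5 further Fisher's tests per chromosome chosen after seeing the data were adjusted over 30. Shares have exact Clopper-Pearson, densities exact Poisson and differences Newcombe intervals. The members and tests were chosen with earlier results of these data known. Named peaks are the 10 highest-scoring and 5 widest, the strongest of each support class and part of the chromosome, the strongest of each replicate without a series peak or partner, the members of the densest window, and the longest and shortest gaps. Other peaks were named after their values were seen. The alternatives were other lists, overlaps, score limits, centres and windows. The code was tested on simulated data. The work was done in Python 3.11.15 with scipy 1.17.1, numpy 2.4.6, pandas 2.3.3 and, for figures, matplotlib 3.10.9.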

Additional observations from a re-analysis of the deposited data

How the results depend on the processing

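With the list of a single replicate the density ratio ranged from 0.923 to 1.01, the centre share from 28.9% to 37.7% and the left share of arm peaks from 38.3% to 45.0%, the value at which its call was lost. That call was also lost with peaks within 1 kb counted once (44.6%). Support in both replicates against the other chromosomes changed sign, never past the threshold, with a 50% overlap (-1.54 points), midpoints within 100 bp (-0.915) and the top 50% by score (-0.425). Centre against arms was -0.0700 points with a 50% overlap, where few peaks match, and passed the threshold at 12.0 with midpoints within 100 bp. Left against right arm, chosen after seeing the data, was 0.474, -1.36 and -11.4 points under the same 3 alternatives and no longer past the threshold. Replicate 2 sharing in the centre against the arms fell to 6.55 points and lost its call with a 50% overlap. A narrow peak inside a much wider one cannot meet the 50% rule, so the values under it decide none of these comparisons. Sharing moved from 66.4% of replicate 1 peaks to 11.2%, 35.4% and 82.0%, and from 48.1% of replicate 2 peaks to 9.32%, 29.5% and 71.6%, with a 50% overlap, midpoints within 100 bp and the top 50% by score. The Spearman rank correlation of replicate 1 with replicate 2 scores was 0.569 without pairs at 3100, against 0.674 over all pairs. The causes were not tested. The other 38 alternative values kept their direction and their side of the threshold, lay within the interval of the main value or, for counts, within 1.5 times it. No paired analysis was possible because no peak list of an input library was used. With no read depth given, a site without a peak cannot be read as a site without TAF-1.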

Other observations

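At the left end of chromosome II both replicates began with a peak that the series list did not have. The replicate 1 peak ran from base 1 to 451 and scored 254.69, and the replicate 2 peak ran from base 2 to 918 and scored 791.69, while the first series peak began at 24525. At the right end the last series peak, at 15271446 to 15271641 with a score of 3.42, overlapped no replicate peak and sets the end of the span as used here. Replicate 2 had 4 peaks in the last 20 kb and replicate 1 had 0.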
